A study of Mus musculus with 6 samples.

Results

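Collagen chains are the proteins that wind, 3 at a time, into the collagens of the extracellular matrix. All genes of the deposited table whose symbol has the form of a collagen chain (Col, a type number, the letter a and a chain number) were taken, 44 of 24532 genes, carried by 60 of 36780 transcripts. The members were taken by symbol, whatever their values, but the family was proposed with an earlier result of these data known, namely that Col16a1 was among the genes lowest in the ethanol samples relative to control. Its difference between the groups and those of its family are therefore described and support nothing.

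The libraries are bulk mRNA sequencing of the nucleus accumbens core, a striatal region of reward and motivation, from wild-type adolescent male mice (postnatal days 35 to 55 per the labels). There were 3 samples titled control and 3 titled ethanol. Per the labels all mice underwent contextual fear conditioning, a day of binge-like exposure, extinction of the context memory and then 27 days of drinking on alternate days, and tissue was collected 24 h later. The range from postnatal day 35 to 55 is shorter than the drinking alone. It thus cannot cover the whole course, and the age at tissue collection is not settled here. The exposure was given as 6 intraperitoneal injections within 6 h of 20% v/v ethanol in saline, first 1.8 g/kg and then 5 times 1.2 g/kg. The treatment field reads ethanol exposure for all 6 samples, so the grouping rests on the titles, descriptions and column names, and what was injected into the control mice is not given in the labels. Drinking is shared by both groups. The labels do not state that the samples came from separate animals, so any spread between them may be technical.

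Each collagen chain carries a long Gly-X-Y repeat, which lets the chains coil into a helix. Fibrillar chains form the banded fibrils of connective tissue, type IV chains form the sheet of basement membranes, and FACIT chains (fibril-associated collagens with interrupted triple helices) sit on the surface of fibrils. In the brain, fibrillar collagen is known mainly from the meninges and the fibroblasts around vessels, and type IV collagen from the vascular basement membrane, while some chains, such as the transmembrane type XXV chain, are made by neurons. Since tissue pieces were sequenced whole, fewer cells of a type and less RNA per cell cannot be told apart in any value given here.

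The repeat that defines the family can be read in the coding sequence as a glycine codon (GGN) in each group of 3 codons. It was counted in the longest coding sequence of each of the 44 genes in the GENCODE M21 annotation. The following stretches of 30 codons are shown because they contrast a long unbroken repeat with one that stops. Capitals mark the glycine codons of the gene's longest run, and for Col16a1 and Col4a2 the run ends within the stretch.
Col1a2, codons 97 to 126: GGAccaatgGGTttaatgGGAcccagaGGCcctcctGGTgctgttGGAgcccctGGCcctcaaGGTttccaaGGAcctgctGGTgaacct
Col16a1, codons 1147 to 1176: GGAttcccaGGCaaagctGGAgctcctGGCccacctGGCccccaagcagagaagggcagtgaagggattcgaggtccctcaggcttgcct
Col4a2, codons 960 to 989: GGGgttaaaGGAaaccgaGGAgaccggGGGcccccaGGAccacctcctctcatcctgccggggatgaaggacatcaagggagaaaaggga

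The fibrillar class stood apart in the length of its longest run, while the other classes overlapped in run length and in number of runs. In the 11 fibrillar genes the longest run held between 216 and 344 repeats, with a median of 338, and Col24a1 and Col27a1 were the shortest at 216 and 217. In the 6 type IV genes the longest run held 39 to 66 repeats, and the repeat was broken into 16 to 24 runs of at least 5, a range that Col16a1 and Col7a1 of other classes also reached. In the 9 FACIT genes the longest run held 32 to 113 repeats. Col16a1 was broken most within that class, with 17 runs that held 303 repeats in all, whereas the 3 type IX genes had 4 runs each and a longest run of 113. In the 18 genes of other types the longest run held 23 to 87 repeats. Members were long and rich in G and C. Among tested genes the median longest transcript was 6128 bases in members and 2879 bases in all genes, and the median GC content of the transcript was 55.2% and 49.95% in turn.

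**Figure D1:**
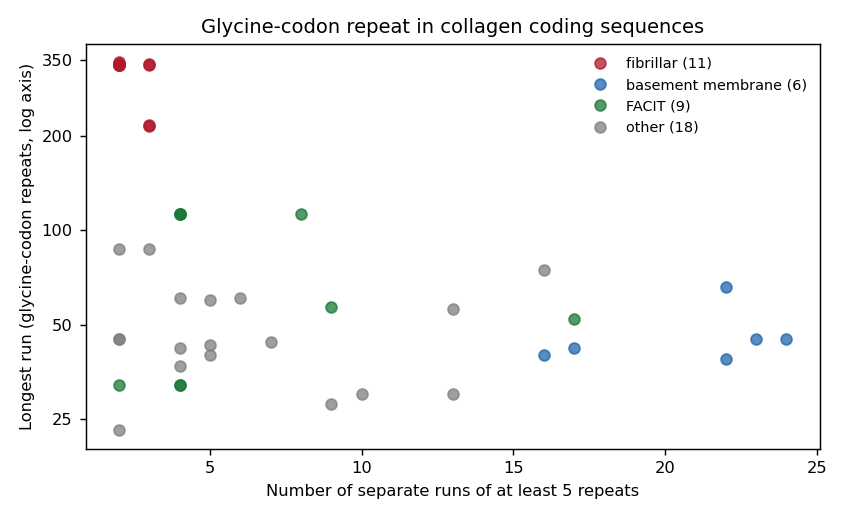
Longest run of glycine-codon repeats (vertical, log axis) against the number of separate runs of at least 5 repeats (horizontal) in the coding sequence of each of the 44 collagen genes, coloured by class. Fibrillar genes lie at 216 repeats or more with 2 or 3 runs, and type IV genes lie at 66 repeats or fewer with 16 to 24 runs.

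The libraries ranged from 35898026 to 67399599 in estimated reads. On the scale of reads per 1000000 (CPM), 3 reads equal 0.0445 to 0.0836, a limit that covers counting error only. Control 2 had reads for 15924 genes, against 17096 to 17707 in the other 5, and lay away from them on the leading principal component (35.7% of the variance). All 9 markers of striatal projection neurons, the tissue's principal neurons, were detected in each library.

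Levels of different chains were compared as FPKM (fragments scaled to transcript length and library size), summed over a gene's transcripts, since this unit allows for length. Col6a1, a chain of the beaded filaments of type VI, had the highest mean level at 15.6 ± 11.1 FPKM (SD, n = 6 libraries), followed by Col9a3 (9.61 ± 1.63), Col4a2 (8.39 ± 4.03), Col16a1 (8.17 ± 4.18), Col9a2 (7.62 ± 2.26), Col11a2 (7.23 ± 2.28), Col25a1 (6.21 ± 1.78) and Col4a1 (5.48 ± 1.91 FPKM). Apart from Col6a1 and Col9a3, neighbours in this order differed by less than the SD of either. The gap between Col6a1 and Col9a3 was below the SD of Col6a1 but above that of Col9a3. Each SD is over both groups and so includes any difference between them. The same 8 chains were highest when CPM was divided by transcript length, and together they held 69.99% to 77.2% of the summed collagen FPKM of a library. The chains best known from skin, bone and tendon were lower, at a mean of 1.69 FPKM for Col1a2, 0.79 for Col1a1 and 0.44 for Col3a1. The lowest was Col10a1, a chain of growth-plate cartilage, at 0.017 FPKM and 0 to 0.242 CPM. Col9a2 and Col9a3, known from cartilage, were thus above both type I chains in this tissue.

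Of summed collagen FPKM, FACIT chains held 25.4% to 40.1%, type IV chains 10.9% to 17.98%, fibrillar chains 16.2% to 19.2% and other types 31.5% to 40.6%, over the 6 libraries. Col6a1 varied most among the 8 highest in its share, from 5.97% in ethanol 1 to 23.5% in control 1. Col9a3 held 7.54% in control 1 and 19.6% in ethanol 2.

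**Figure D2:**
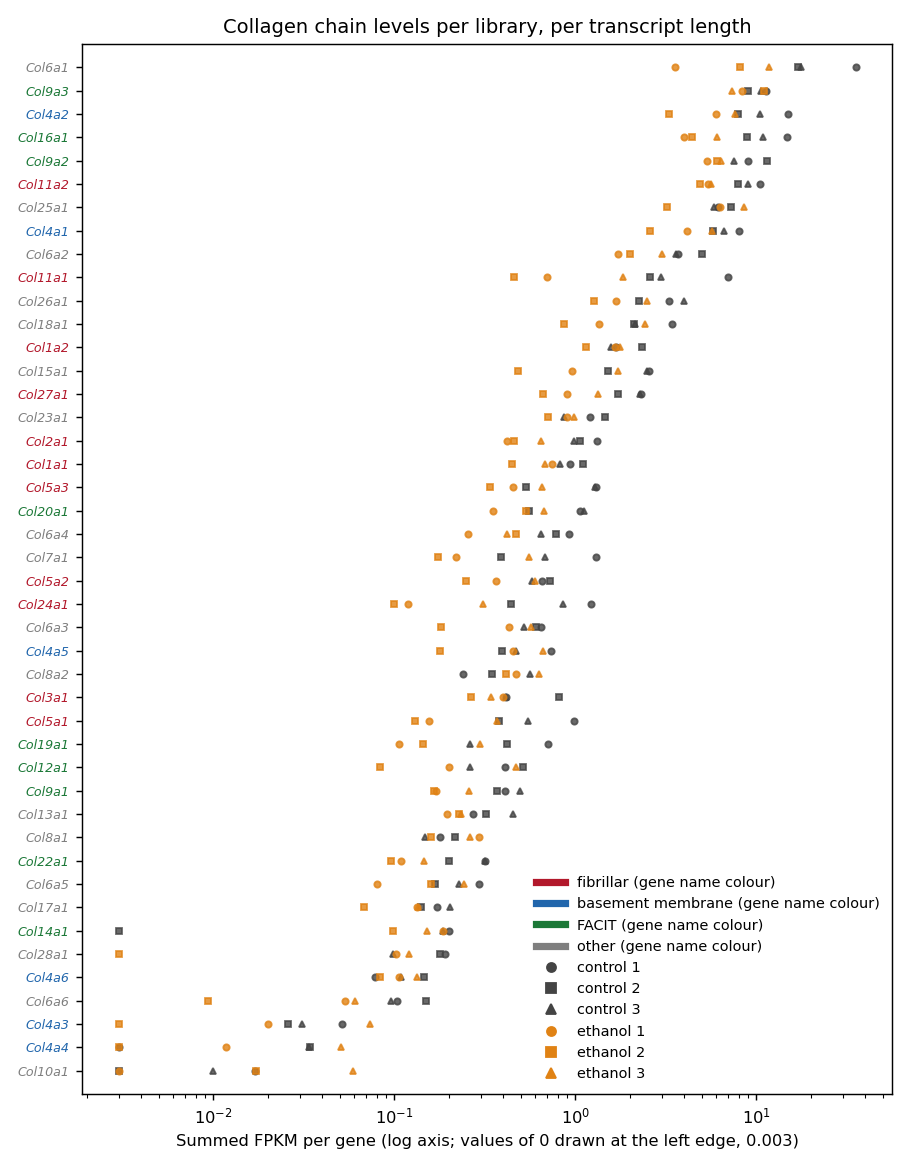
Summed FPKM of each of the 44 collagen genes (horizontal, log axis, values of 0 drawn at the left edge) in the 6 libraries, ordered by mean level, with gene names coloured by class. Levels span from a mean of 15.6 FPKM for Col6a1 to 0.017 FPKM for Col10a1, and control libraries (dark) lie mostly to the right of ethanol libraries (orange).

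Ethanol samples were then set against control samples. Most collagen chains were lower in ethanol, by a median of 0.67 on the log2 scale, and the fibrillar chains Col24a1 and Col11a1 and the type VI chain Col6a1 differed most. Of the 44 genes, 43 passed the filter on low counts and were fitted, and 38 of these had a log2 fold change below 0, whereas 47.3% of all 15774 tested genes did. Over the 43 chains the median was -0.67, and over all tested genes it was 0.02. In 14 chains all ethanol libraries lay below all control libraries, 32.6% of the chains against 8.41% of all tested genes. In no chain did all ethanol libraries lie above all control libraries, against 9.35% of all genes.

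No chain passed the threshold in edgeR's quasi-likelihood test, with a smallest adjusted p of 0.419 among the 43. The same test called 0% of all tested genes. At an unadjusted p under 0.05 there were 20 chains with lower and 0 with higher values, where 5.34% of all tested genes were lower and 5.31% higher. DESeq2 called 6 chains lower (Col11a2, Col16a1, Col24a1, Col27a1, Col2a1 and Col6a1) and 0 higher, against 0.59% and 0.323% of all genes, and limma-voom called 0. Since the family was chosen with this contrast known, nothing is read from these counts. Left out in turn, no single sample brought the number of lower chains under 35. The median lay from -0.97 without ethanol 3 to -0.54 without ethanol 2. The number of chains with groups apart was 14 without control 1 or without ethanol 2, 16 without ethanol 1, 20 without control 3, 23 without control 2 and 27 without ethanol 3. In that order, 12.2%, 20.1%, 10.8%, 10.5%, 13.9% and 17.3% of all tested genes met this.

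**Figure D3:**
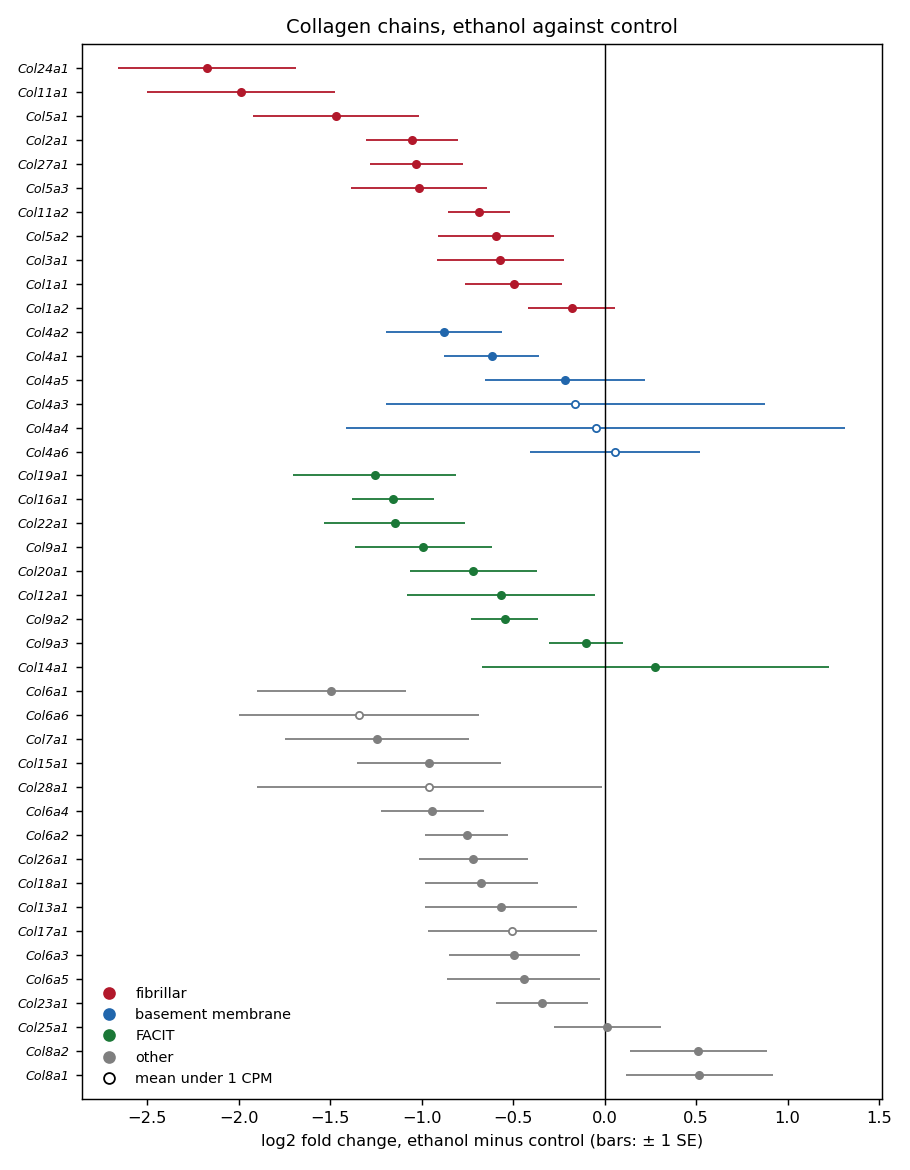
Log2 fold change of ethanol against control (horizontal, bars ± 1 SE) for the 43 fitted collagen chains, grouped and coloured by class, with open circles for chains at a mean under 1 CPM. All 11 fibrillar chains lie left of 0, and 5 chains (Col4a6, Col14a1, Col25a1, Col8a1 and Col8a2) lie right of it.

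Of the fibrillar chains 11 of 11 were lower in ethanol, with a median of -1.02 on the log2 scale. Col24a1, a minor fibrillar chain (chromosome 3 from 145292472 to 145552011, mm10), stood at 10.3, 3.69 and 7.24 CPM in control 1, 2 and 3, and at 1.13, 0.925 and 2.68 CPM in ethanol 1, 2 and 3. The groups did not overlap. The log2 fold change was -2.17 (SE 0.49), or -1.80 without control 1 and -2.77 without ethanol 3. Col11a1, which with type XI partners nucleates thin fibrils (chromosome 3 from 114030540 to 114220756), stood at 63.3, 23.1 and 26.96 CPM in control and at 7.11, 4.50 and 17.1 CPM in ethanol. Control 1 was far above the other libraries, and the groups did not overlap. The log2 fold change was -1.99 (SE 0.51), or -1.39 without control 1 and -2.69 without ethanol 3. Its partner chain Col11a2, encoded on chromosome 17, was at 80.2, 60.2 and 69.3 CPM in control and 45.5, 40.4 and 44.3 CPM in ethanol. The 3 ethanol libraries were tight and below all control libraries, with a log2 fold change of -0.69 (SE 0.17).

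All 6 chains of types I, III and V had groups that overlapped. Col1a2, the second chain of type I collagen, was at 10.3, 14.1 and 9.68 CPM in control and 11.4, 7.62 and 11.1 CPM in ethanol. These groups overlapped, and the log2 fold change was -0.18 (SE 0.24), with a value of 0.0058 without control 2. Col3a1, the single chain of type III collagen, was at 2.69, 5.22 and 2.73 CPM in control and 2.93, 1.90 and 2.31 CPM in ethanol, so that control 2 alone stood high, and its log2 fold change of -0.57 (SE 0.35) was -0.18 without control 2. Col5a2, its neighbour on chromosome 1 and a type V chain that helps set fibril width, was at 5.08, 5.59 and 4.48 CPM in control and 3.19, 2.12 and 4.75 CPM in ethanol. The log2 fold change was -0.59 (SE 0.32), and -0.36 without ethanol 2 and -0.92 without ethanol 3. The FPKM of Col5a2 was 0.898 to 1.74 times that of Col3a1 across libraries. Among the other fibrillar chains, group means in control and ethanol were 18.8 and 9.22 CPM for Col27a1 and 6.76 and 3.27 CPM for Col2a1, the cartilage fibril chain, both without overlap of the groups. They were 6.27 and 2.28 CPM for Col5a1, 7.47 and 3.70 CPM for Col5a3, and 6.64 and 4.70 CPM for Col1a1, with overlap.

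Of the 6 basement membrane chains of type IV, 5 were lower in ethanol, and in none of the 6 were the groups apart. Their median log2 fold change was -0.19, but 0.16 with ethanol 2 left out and -0.99 with ethanol 3 left out. Col4a1 and Col4a2, the chains of the common vascular type IV network, lie head to head on chromosome 8, from 11198423 to 11312826 and from 11312805 to 11449287, so that their deposited starts overlap. Col4a2 was at 113.5, 59.3 and 79.6 CPM in control and 50.7, 26.95 and 59.5 CPM in ethanol (log2 fold change -0.88, SE 0.32). Col4a1 was at 62.5, 44.1 and 51.9 CPM in control and 36.1, 21.8 and 45.4 CPM in ethanol. The log2 fold change was -0.62 (SE 0.26), and -0.39 without ethanol 2. Both chains put the libraries in 1 order within each group, with control 1 highest and ethanol 2 lowest, and the FPKM of Col4a2 was 1.27 to 1.87 times that of Col4a1. The overlap of the pairs of groups came from ethanol 3.

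The other type IV pairs, known from kidney and a few other epithelia, were scarce. Col4a5, on the X chromosome, was at 5.61, 2.99 and 3.61 CPM in control and 3.86, 1.49 and 5.18 CPM in ethanol, with overlapping groups. Its log2 fold change was -0.22 (SE 0.44), but above 0 with control 1 (0.089) or ethanol 2 (0.13) left out. Its neighbour Col4a6 was between 0.607 and 1.14 CPM in all 6 libraries, with a log2 fold change of 0.056 (SE 0.47) that took either sign as samples were left out. Col4a3 lay between 0 and 0.778 CPM and Col4a4 between 0 and 0.483 CPM, with log2 fold changes of -0.16 (SE 1.04) and -0.050 (SE 1.37), so that no difference was detectable at this depth.

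Of the FACIT chains 8 of 9 were lower in ethanol. Their median on the log2 scale was -0.72, or -1.18 with ethanol 3 left out and -0.52 with ethanol 1 left out. Col16a1, a FACIT chain found on small fibrils and near basement membranes (gene identifier 107581, chromosome 4 from 130047840 to 130099277, mm10), was at 90.03, 53.6 and 66.8 CPM in control and 27.3, 29.3 and 37.9 CPM in ethanol. All ethanol libraries lay below all control libraries, and the log2 fold change of -1.16 (SE 0.22) stayed between -1.32 and -0.94 in the 15 alternative fits. This gene led to the choice of the family, and its difference is a description. The 3 chains of type IX, which decorate type II fibrils in cartilage, differed among themselves. Col9a2 was at 28.8, 36.4 and 24.6 CPM in control and 19.3, 21.1 and 21.1 CPM in ethanol, without overlap (log2 fold change -0.55, SE 0.18). Col9a3 was at 37.8, 29.7 and 35.6 CPM in control and 31.2, 39.8 and 25.1 CPM in ethanol, with overlap (log2 fold change -0.10, SE 0.20, or 0.047 with ethanol 3 left out). Col9a1 was scarce, with group means of 1.95 and 0.98 CPM and no overlap.

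Col14a1, a FACIT chain of tendon and skin, was the only member of the class with a value above 0, at 1.53, 0 and 1.42 CPM in control and 1.58, 0.828 and 1.18 CPM in ethanol. It had no reads in control 2, and its log2 fold change of 0.28 (SE 0.95) was -0.29 without control 2. For the remaining FACIT chains the group means in control and ethanol were 5.72 and 2.41 CPM for Col19a1, 5.41 and 3.66 CPM for Col12a1, 4.48 and 2.73 CPM for Col20a1, and 2.01 and 0.907 CPM for Col22a1, where only Col22a1 had groups that did not overlap.

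Among the other types, 14 of 17 fitted chains were lower in ethanol, with a median log2 fold change of -0.67. All 6 chains of type VI, which form beaded filaments around cells, were lower. In 4 of them all ethanol libraries lay below all control libraries, as they did in 8.41% of all tested genes. Col6a1 (chromosome 10 from 76708792 to 76726044) was at 164.8, 78.1 and 82.9 CPM in control and 18.6, 40.7 and 56.5 CPM in ethanol (log2 fold change -1.50, SE 0.41). Its values spread widely within both groups, with control 1 highest and ethanol 1 lowest. Its log2 fold change was -1.06 without control 1 and -1.87 without ethanol 3. Col6a2, which lies beside it on chromosome 10 and joins it in the same trimer, was at 16.5, 21.9 and 16.02 CPM in control and 8.83, 9.64 and 13.8 CPM in ethanol (log2 fold change -0.75, SE 0.23). Although the proteins assemble together, the FPKM of Col6a2 was 0.105 times that of Col6a1 in control 1 and 0.488 times in ethanol 1. Col6a3, the long partner chain, had means of 7.53 and 5.35 CPM with overlap, and Col6a4 had 6.85 and 3.58 CPM without overlap. Col6a5 had 2.51 and 1.87 CPM with overlap. Col6a6 was scarce, with 0.979 and 0.381 CPM without overlap and 4 reads in ethanol 2.

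Col25a1, a transmembrane chain made by neurons, was the only chain among the 8 highest by FPKM with a log2 fold change above 0. Col9a3, also among them, overlapped between groups with a value of -0.10. Col25a1 was at 52.8, 62.04 and 50.9 CPM in control and 61.03, 30.2 and 76.05 CPM in ethanol. The ethanol libraries held both the highest and the lowest value, and the log2 fold change of 0.014 (SE 0.29) ranged from -0.27 without ethanol 3 to 0.30 without ethanol 2. Both chains of type VIII, short chains of the matrix under endothelium and of the eye, had values above 0. Col8a1 was at 1.08, 1.27 and 0.902 CPM in control and 1.99, 1.05 and 1.61 CPM in ethanol. The log2 fold change was 0.52 (SE 0.40), and 0.29 without ethanol 1. Col8a2 was at 1.22, 1.74 and 2.87 CPM in control and 2.68, 2.29 and 3.30 CPM in ethanol. The log2 fold change was 0.51 (SE 0.37), and 0.26 without control 1 and 0.90 without control 3. Both overlapped between groups. The multiplexins Col15a1 and Col18a1, which lie in the zone of basement membranes, had group means of 13.6 and 7.01 CPM and of 15.96 and 10.03 CPM in control and ethanol, with overlap. Col7a1, the chain of the anchoring fibrils of skin, had means of 8.57 and 3.63 CPM, and Col26a1 had 10.5 and 6.39 CPM, also with overlap. Col23a1, Col13a1 and Col17a1, the other transmembrane chains, had log2 fold changes from -0.57 to -0.34, of which Col13a1 alone had groups without overlap, and Col28a1 was at 0 to 0.955 CPM.

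**Figure D4:**
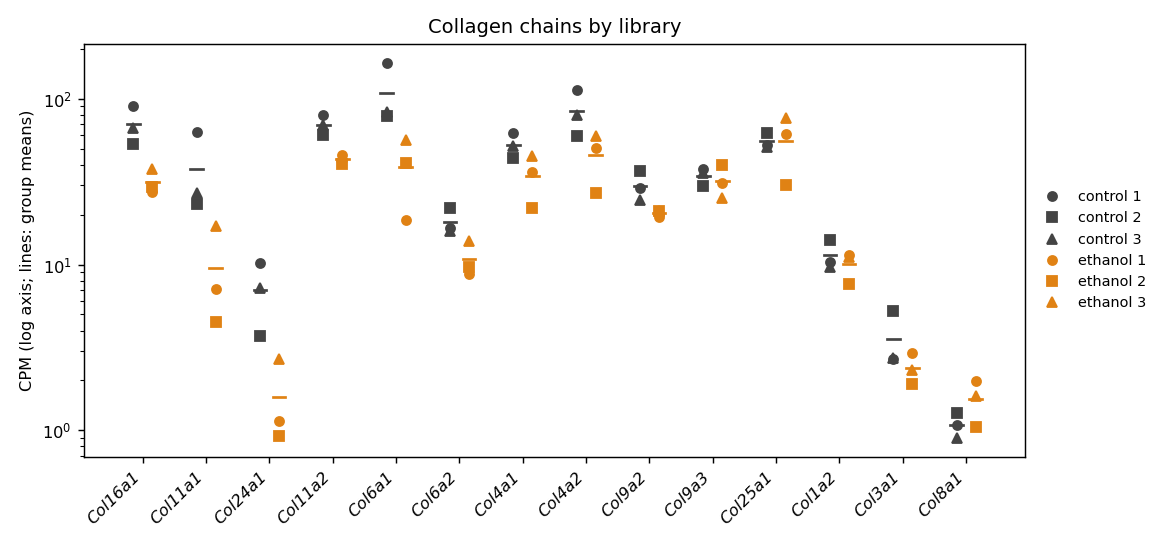
CPM (vertical, log axis) of 14 collagen chains in the 3 control (dark) and 3 ethanol (orange) libraries, with lines at the group means. Col16a1, Col11a1, Col24a1, Col11a2, Col6a1, Col6a2 and Col9a2 show groups that do not overlap, while Col25a1, Col9a3, Col1a2 and Col8a1 overlap.

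The chains differed in which library was highest. Of the 43 fitted chains, 18 were highest in control 1, 10 in control 2 and 8 in control 3, and 7 in an ethanol library. The lowest value was in ethanol 2 for 27 chains and in ethanol 1 for 10. Over all tested genes a control library was highest in 37% and ethanol 2 was lowest in 23.9%. The 10 chains highest in control 2 included Col1a1, Col1a2, Col3a1, Col5a2, Col6a2 and Col9a2, whereas the 18 highest in control 1 included Col4a1, Col4a2, Col5a1, Col6a1, Col7a1, Col11a1, Col16a1, Col18a1 and Col24a1. As a median deviation from each chain's own mean on the log2(CPM + 0.5) scale, control 1, 2 and 3 stood at 0.49, 0.20 and 0.27, and ethanol 1, 2 and 3 at -0.30, -0.64 and 0.015. Ethanol 3 was thus the ethanol library closest to control, and the same medians over all tested genes lay between -0.017 and 0.014.

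For 15 of the 44 genes the table held more than 1 transcript, and for several chains the estimated split between transcripts varied from library to library. Col18a1 variant 2, the shorter form, was at 3.35 FPKM in control 1 and 0.185 and 0.142 FPKM in control 2 and 3, where variant 1 was at 0.0483, 1.92 and 2.00 FPKM. In ethanol 1, 2 and 3 variant 2 was at 1.23, 0.0295 and 2.41 FPKM. Col25a1 variant 3 was at 4.67, 0.036 and 2.35 FPKM in control and 2.51, 0 and 4.33 FPKM in ethanol, with variant 1 making up most of the rest. These forms did not divide the libraries by group, and the splits are estimates that may be assigned wrongly, so totals per gene were used throughout. Col4a1 included a transcript catalogued as non-coding at 0.736 to 4.09 FPKM, beside 1.87 to 3.98 FPKM for the coding one.

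The 100 bases before the start site are shown for Col16a1, for the 3 chains with the most negative log2 fold change among those at a mean of 1 CPM or more, and for Col25a1, which differed least, so that chains lower in ethanol can be set beside one with a value near 0. Sequences are from RefSeq on GRCm38.p6, 5′ to 3′ on the gene's strand, and capitals mark a CCAAT box (CCAAT) or a GC box (GGGCGG) on either strand.
Col16a1, chr4:130047740-130047839, plus strand: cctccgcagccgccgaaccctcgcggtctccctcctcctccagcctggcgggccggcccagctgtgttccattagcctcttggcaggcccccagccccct
Col24a1, chr3:145292372-145292471, plus strand: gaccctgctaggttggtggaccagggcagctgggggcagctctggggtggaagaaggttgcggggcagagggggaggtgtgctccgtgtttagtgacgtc
Col11a1, chr3:114030440-114030539, plus strand: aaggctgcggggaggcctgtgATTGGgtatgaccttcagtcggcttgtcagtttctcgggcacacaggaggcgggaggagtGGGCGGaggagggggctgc
Col6a1, chr10:76726045-76726144, minus strand: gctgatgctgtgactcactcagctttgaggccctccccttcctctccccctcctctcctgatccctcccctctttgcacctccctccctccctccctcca
Col25a1, chr3:130180745-130180844, plus strand: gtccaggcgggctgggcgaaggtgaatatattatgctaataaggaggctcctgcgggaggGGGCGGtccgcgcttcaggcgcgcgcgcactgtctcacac

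No motif among the 3 searched was common to all printed windows. Col11a1 held a CCAAT box and a GC box and Col25a1 a GC box, while the windows of Col16a1, Col24a1 and Col6a1 held none of these letters, nor did any hold TATAAA. Promoter sequences were at hand for 35 of the 44 genes, all but Col1a1, Col2a1, Col4a3, Col5a2, Col9a3, Col12a1, Col14a1, Col22a1 and Col26a1. In the 250 bases before the start, GGGCGG was found in 20 of 35 chains (57.1%) and in 56.6% of all 12406 promoters of tested genes and chains, CCAAT in 31.4% and 35.8%, and TATAAA in 5 of 35 (14.3%) and 6.78%. The median number of CG dinucleotides was 10 in chains and 15 in all promoters. These are matches of letters and not shown to be sites.

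Genes that make, cut, bind or degrade collagen had list medians nearer 0 than that of the chains. They were grouped in 6 lists, and edgeR called 0 members of any list in either direction. DESeq2 called P3h3 alone among them, lower in ethanol, where it called 0.59% of all tested genes lower. Of 17 genes for collagen modification and folding 8 were lower, with a median log2 fold change of 0.0066. Among them P4hb, a subunit of the prolyl hydroxylase that stabilises the helix, was at 178.7 to 191.4 CPM in control and 187.4 to 254.1 CPM in ethanol, and Ppib, a folding isomerase, was at 119.9 to 143.3 and 99.02 to 140.9 CPM. P3h3, a prolyl 3-hydroxylase homologue that acts on collagen lysine modification, was at 46.4, 33.6 and 45.9 CPM in control and 19.2, 17.7 and 25.95 CPM in ethanol, without overlap (log2 fold change -1.003, SE 0.21). The prolyl 3-hydroxylase gene P3h1 was also lower without overlap (log2 fold change -0.62), and P4ha1 and Fkbp10 of the same list were higher without overlap. Of 12 fitted genes for propeptide processing and cross-linking 8 were lower, with a median of -0.21. Pcolce, the enhancer of procollagen C-proteinase, was at 4.62, 8.26 and 6.29 CPM in control and 3.31, 3.34 and 3.19 CPM in ethanol, without overlap (log2 fold change -0.96). The C-proteinase gene Bmp1 had a log2 fold change of -0.64 and the N-proteinase gene Adamts3 one of -0.64 as well.

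Collagen receptors had 4 of 8 members lower and a median of -0.02. The receptor kinase gene Ddr1 was at 193 to 270.1 CPM over the 6 libraries with a log2 fold change of 0.04, the integrin chain gene Itgb1 had 0.0097, and Itga10 had -0.97. Genes for collagen breakdown and its inhibitors had 1 of 8 lower and a median of 0.13. Its most abundant members, the inhibitor genes Timp2 and Timp3, had log2 fold changes of 0.48 and 0.12. Non-collagen partners of the basement membrane had 7 of 14 lower and a median of -0.05, with Sparc at 0.30, Agrn at -0.52 and the laminin chain gene Lama5 at -0.80. Fibril-associated proteoglycans and proteins had 7 of 10 lower and a median of -0.38, with Fn1 at -0.09, Prelp at 0.81 and Ogn at -2.11. The difference between these lists and the chains was not tested.

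Markers of other cell types were measured beside the chains. Summed over the 44 chains, collagen RNA was at 919.6, 623.9 and 678.9 CPM in control 1, 2 and 3 and at 411.1, 339.2 and 541 CPM in ethanol 1, 2 and 3, so that the group means differed by 1.72 times and the groups did not overlap. Summed over 8 markers of cortical glutamatergic neurons, which lie outside the nucleus accumbens, levels were 389.6, 123.4 and 169.4 CPM in control and 92.8, 49.7 and 131.6 CPM in ethanol. Control 1 was highest and ethanol 2 lowest in both sums, and 7 of the 8 markers were lower in ethanol. The vesicular glutamate transporter gene Slc17a7 in that list was at 288.6, 58.2 and 102.4 CPM in control and 24.7, 9.42 and 55.95 CPM in ethanol, and none of the 8 markers was at 0 in any library.

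Summed over 12 non-collagen markers of meningeal and perivascular fibroblasts, levels were 53.7, 97.6 and 52.96 CPM in control and 44.7, 43.04 and 44.8 CPM in ethanol. Control 2 was highest here, as it was for 10 of the 43 fitted chains, drawn from several classes, while control 1 was highest for 18. All 11 fitted fibroblast markers were lower in ethanol, with a median log2 fold change of -0.64, Igf2 at -0.57 and Ogn at -2.11, and Slc22a2 was at 0 in 5 libraries. Endothelial markers summed to 195.4 to 236.7 CPM in control and 194.9 to 209.7 CPM in ethanol, with 4 of 8 lower, and mural cell markers to 255.2 to 296.5 and 222.5 to 263.7 CPM, with 6 of 10 lower. The endothelial gene Slco1a4 and the pericyte gene Rgs5 stood lower in ethanol without overlap (log2 fold changes -0.76 and -0.72), and Cldn5 had -0.10 and Vtn -0.09. Striatal projection neuron markers summed to 1753, 1949 and 1618 CPM in control and 1899, 3530 and 1577 CPM in ethanol, highest in ethanol 2, where the collagen sum was lowest. Of these 9 markers 8 were higher in ethanol, with a median log2 fold change of 0.39. The dopamine receptor genes Drd1 and Drd2 had all ethanol libraries above all control libraries, as did 9.35% of all tested genes. The most abundant of the 9, Penk and Ppp1r1b, overlapped between groups. Penk was at 596.3, 725.9 and 628 CPM in control and 604.9, 1423 and 532.7 CPM in ethanol. Ppp1r1b was at 521.3, 597.9 and 512.7 CPM in control and 669.3, 1156 and 486 CPM in ethanol. Among all markers DESeq2 called Drd2 higher, and Slc13a4 (fibroblast) and Kcnj13 (choroid plexus) lower. It called 0.323% of all tested genes higher and 0.59% lower. Myelinating oligodendrocyte markers had 7 of 8 lower and a median of -0.13. The choroid plexus sum stood high in control 3 alone, through Ttr at 394.4 CPM against 0.73 to 4.63 CPM elsewhere. Kcnj13, Folr1 and Kl were also highest in control 3. Clic6, the next most abundant marker, was highest in control 1 (11.6 CPM) and Otx2 in ethanol 3 (5.02 CPM). The part of cortical, fibroblast, choroid plexus or striatal neuron RNA in the collagen values was not tested.

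**Figure D5:**
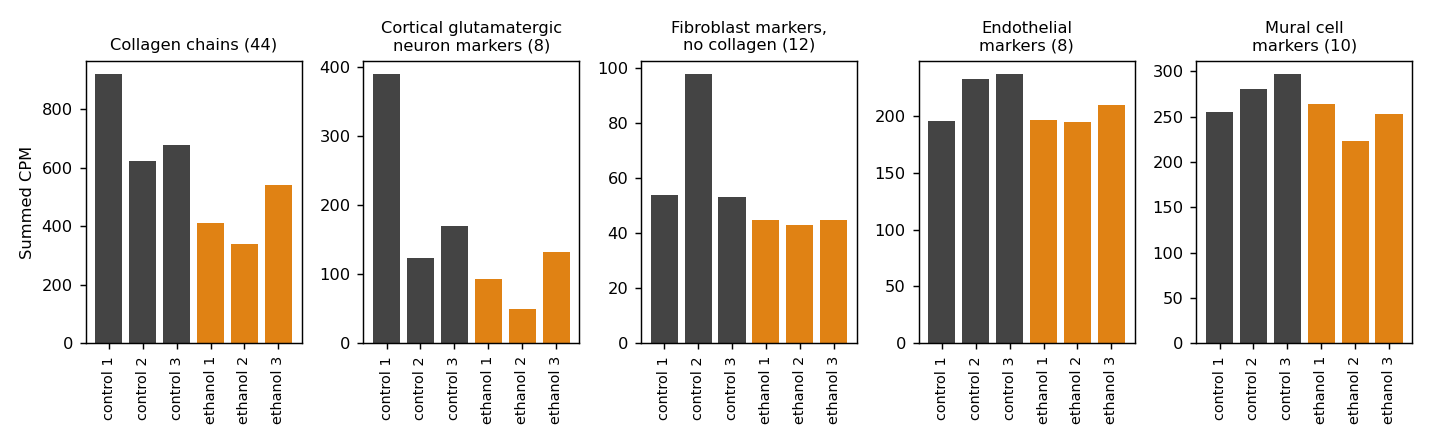
Summed CPM per library (vertical, each panel on its own scale from 0) for the 44 collagen chains and for lists of cortical glutamatergic neuron, fibroblast, endothelial and mural cell markers, in control (dark) and ethanol (orange) libraries. Collagen and cortical sums are both highest in control 1 and lowest in ethanol 2, the fibroblast sum is highest in control 2, and the endothelial and mural sums vary less.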

How the data were processed

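The authors deposited 1 table of RefSeq transcripts with, per the file headers, a read count and an FPKM value for each of the 6 samples. The submitters' processing notes name mm10 and bcl2fastq, and the sources used here do not name the aligner or counter. The deposited counts are estimated counts. In each library 100% of 20948 to 25386 transcripts matched FPKM times length times library size rounded up, within 0.05 reads, and rounding up adds at most 1 read per transcript. Counts were summed by gene identifier. Genes were filtered with filterByExpr (minimum count 10), scaled by TMM and fitted with edgeR 4.0.16 (quasi-likelihood, R 4.3.3, group only, Benjamini-Hochberg over 15774 genes, threshold 0.05). SE is the log2 fold change over the square root of F. CPM use TMM-scaled libraries, and FPKM are the authors' values summed per gene. Whether counting used strand is not stated, and reads of isoforms or paralogs may be divided wrongly. No pair of libraries agreed within sampling noise (chi-square per degree of freedom at least 31.6). The test was tested on simulated data.

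Alternatives used DESeq2 1.42.0, limma 3.58.1 (voom), other scalings and filters, a replicate block, unsummed transcripts and fits without each sample. Removal of GC and length trends (GENCODE M21, 97.03% of tested genes matched), counts of chains called and counts of groups without overlap were added after seeing the data. The members and lists were chosen with earlier results of these data known. Chains given in each library were Col16a1, the 3 highest per class by FPKM, the 3 largest changes per direction at a mean of at least 1 CPM, and neighbouring pairs. From other lists the 2 most abundant genes, the largest change at that level and P3h3 were taken. Genes named beyond this rule were chosen after their values were seen. Figures were drawn with matplotlib 3.10.9.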

Additional observations from a re-analysis of the deposited data

How the results depend on the processing

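The number of collagen chains lower in ethanol was 33 to 40 in the alternative fits with all samples, where 33 came from a filter of at least 1 CPM in 3 libraries that fitted fewer chains, and 35 to 39 without each sample in turn. The median over chains was -0.97 to -0.54 without each sample and -0.78 with GC and length trends removed. Class medians without each sample lay from -1.21 to -0.83 for fibrillar chains, -1.18 to -0.52 for FACIT chains, -0.96 to -0.47 for other types and -0.99 to 0.16 for type IV chains, whose median was -0.63 under the filter of at least 1 CPM in 3 libraries because scarce chains were left out. Chains with groups apart numbered 18 with total counts only (11.6% of all tested genes) and 14 to 27 without each sample (10.5% to 20.1% of all tested genes), where fewer samples make this easier. DESeq2 called 93 genes lower and 51 higher, among them 6 chains, and edgeR without each sample called 0 to 10 lower and 0 to 201 higher, the most without ethanol 2, with 0 chains. Of 21 named chains, 13 kept their sign in the alternatives in which they were fitted, and 8 did not (Col1a2, Col4a3, Col4a4, Col4a5, Col4a6, Col9a3, Col14a1 and Col25a1). The cause was not tested. Same-numbered samples deviated together with correlations of 0.146, -0.031 and -0.017, and unlike-numbered ones with -0.217 to 0.188. No pairing by number was seen, but with 3 samples per group this cannot exclude one. With a replicate block the median over chains was -0.72, 38 chains were lower and 0 genes were called. Depth limits the chains under 1 CPM, where 3 reads stand for up to 0.0836 CPM.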
